A study of Mus musculus with 8 samples.

Results

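The subunits of the respiratory chain and of the ATP synthase were followed in mouse embryos treated with trimetazidine (TMZ). They were chosen by symbol among the protein-coding genes of GENCODE vM39: the complex I genes (Nduf a, b, c, s and v), the complex III genes (Uqcr and Cyc1), the complex IV genes (Cox4i1 and Cox5 to Cox8), the ATP synthase genes (Atp5) and the 13 protein genes of the mitochondrial genome, prefixed mt-. This gave 97 genes, 84 nuclear and 13 mitochondrial. Neither deposited table names its entries, so each name is inferred, from the gene length that the FPKM values hold and from the order of the entries, and was kept at a posterior of at least 0.95. Of the 97 genes, 88 were named in at least 1 table and 81 in both: 87 among 31899 entries at the 8-cell stage and 82 among 29202 entries at the morula stage. The length in the table equalled that of the annotation for all 13 mitochondrial genes, but for only 21 of the 74 and 21 of the 69 named nuclear genes, and among those exact ones 0 were called at the 8-cell stage and 1, lower, at the morula stage.

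The embryos were wild type, from 7-week-old ICR mice, and grew in KSOM medium with no drug (control) or with 100 μM TMZ, which according to the labels was present from the 2-cell stage. They were collected 70 h (8-cell) or 78 h (morula) after hCG injection, and full-length amplified mRNA was sequenced in 2 libraries per group and 8 in all. How many embryos a library held is not given in the sources used here, nor whether the 2 libraries of a group, which the study calls biological replicates, came from separate cultures, so the p-values measure only the spread between these libraries, which may be technical. The libraries held 31672356 to 64814423 fragments. The 8-cell TMZ libraries share a column header and are called A and B. FPKM counts fragments relative to the length of the gene and to the total of the library, so it is a share of the RNA read. In these whole embryos fewer cells and less RNA per cell cannot be told apart, and the table of each stage was made separately, so levels at both stages are set side by side without a test.

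The respiratory chain passes electrons from NADH through complex I, or from succinate through complex II, to complex III and by cytochrome c to complex IV, which reduces oxygen. Complexes I, III and IV pump protons, and the ATP synthase, or complex V, lets them back through its membrane ring to turn a rotor inside its F1 head, where ATP is made. Most subunits are encoded in the nucleus and the rest in mitochondrial DNA, so each complex except complex II needs both genomes. Preimplantation embryos live on the mitochondria of the oocyte and get most of their ATP from this chain. TMZ blocks the last step of mitochondrial long-chain fatty acid oxidation, a source of the NADH and reduced flavin that the chain uses. For early mouse embryos the study proposes that long-chain oxidation may take place mainly in peroxisomes rather than in mitochondria.

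The mitochondrial genes need their sequence shown first, because part of the mitochondrial genome stands almost unchanged in a nuclear chromosome. In GRCm39, chr1:24650616-24655265 holds a copy, on the opposite strand, of 4649 bases of chrM from position 6394 to 11042, and only 2 places differ: the substitution T9461C, counted along chrM with the mitochondrial base first, and an inserted A at position 9828. The substitution lies at the start of mt-Nd3 (chrM:9459-9806). These are the 61 bases around it from GRCm39, written 5′ to 3′ along the strand of chrM, with the differing base in capitals. They show how little there is to tell a read of one from a read of the other.
chrM:9431-9491, plus strand: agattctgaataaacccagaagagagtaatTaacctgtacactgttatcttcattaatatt
chr1:24652168-24652228, minus strand: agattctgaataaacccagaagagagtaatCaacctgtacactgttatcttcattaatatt

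Genes inside this copy were mostly listed at lower values than genes outside it, except mt-Atp6 in morulae, which in TMZ library 1 (424 FPKM) stood above mt-Nd5 (390.4 FPKM) and mt-Nd6 (175 FPKM). All of mt-Co2, mt-Atp8, mt-Atp6, mt-Co3, mt-Nd3 and mt-Nd4l lies in the copy, and their values ran from 0.267 to 424 FPKM over all 8 libraries. Outside it lie mt-Nd1, mt-Nd2, mt-Nd5, mt-Nd6 and mt-Cytb, at 150.4 to 13254 FPKM. The copy takes in 31% of mt-Co1 and 63.6% of mt-Nd4, which stood at 379.5 to 2451 FPKM. At most 3.19% of the 100-base stretches of an outside gene occur anywhere else in GRCm39, against at least 98.8% of those of an inside gene. How the counting treated a read that fits both places is not given in the sources used here, and its part in the low values was not tested. Values of the 6 inside genes are therefore given as listed and not as levels of these mRNAs.

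**Figure D1:**
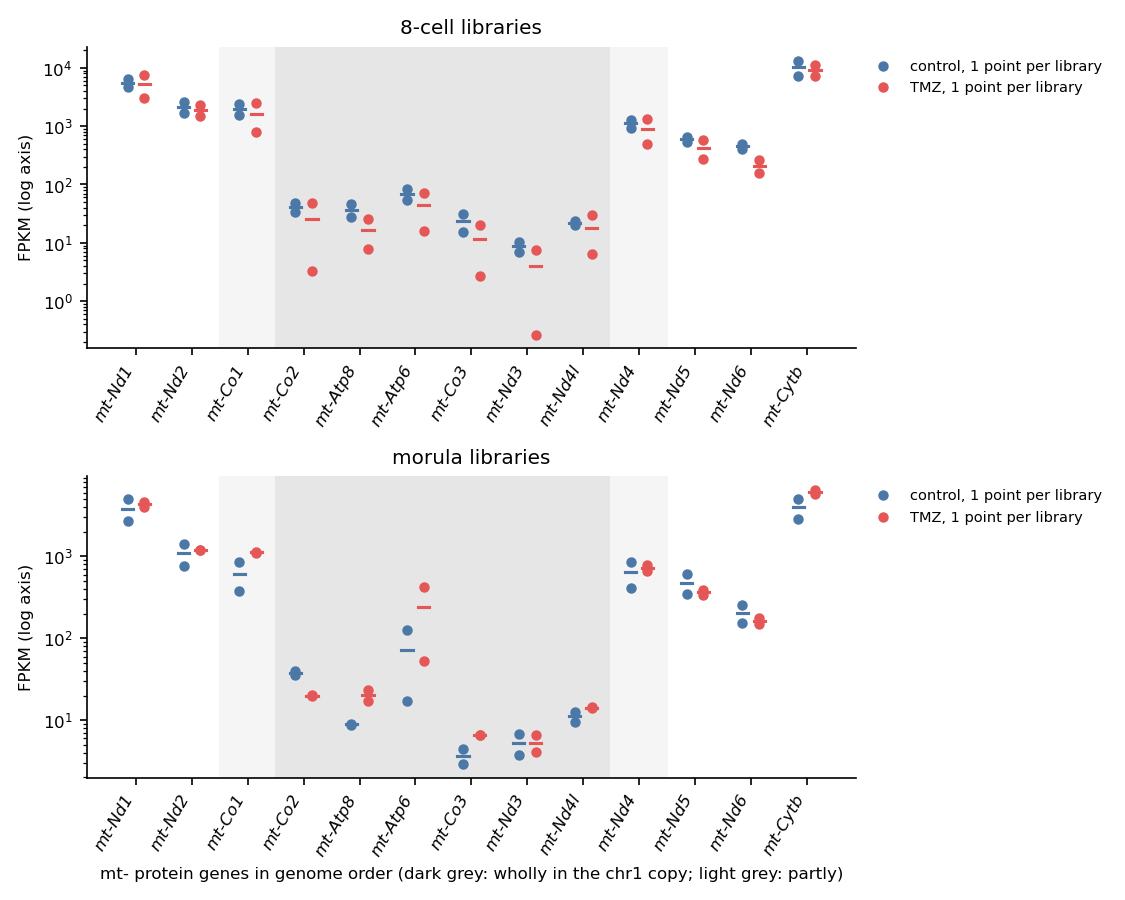
FPKM of the 13 mt- protein genes on a log axis, in the order of the mitochondrial genome, at the 8-cell stage (top) and the morula stage (bottom). Each point is a library, blue for control and red for TMZ, and each short line the mean of 2 libraries; most values of the genes wholly in the chromosome 1 copy (dark grey) lie below those of the others, with mt-Atp6 in morulae, up to 424 FPKM, as the exception, and 8-cell TMZ library A and morula control library 2 are the low points of most genes.

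Among the nuclear genes the complexes stood at unequal levels. The median nuclear subunit had 88.4 FPKM over the 8-cell libraries and 109 FPKM over the morula libraries, against 0.603 and 0.721 FPKM for the median protein-coding gene. Cox6b1, an outer subunit at the contact of the complex IV dimer, had the highest mean of the nuclear members at both stages, at 635 and 671 FPKM in the 8-cell controls and 585 and 651 FPKM under TMZ. At the morula stage it had 662 and 839.7 FPKM in control and 705 and 736 FPKM under TMZ. Control and TMZ overlapped at both stages. Cox8a, Uqcr10, Uqcrb, Atp5me and Cox6a1, all small subunits, followed in each table.

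As a share of all fragments, the 13 mt- genes varied more between libraries than between treatments. At the 8-cell stage they took 1.93% and 3.13% in control and 1.53% and 2.95% under TMZ, so library A was lowest and library B lay between the controls. At the morula stage they took 1.59% and 0.858% in control and 1.63% and 1.59% under TMZ, and only control library 2 stood apart. The mean ± SD was 2.53% ± 0.846 in the 8-cell controls against 2.24% ± 1.003 under TMZ, and 1.23% ± 0.52 against 1.61% ± 0.0279 in morulae (n = 2 each). The 74 named nuclear subunits took 1.56% and 1.53% of the fragments in the 8-cell controls and 1.44% and 1.23% under TMZ. The 69 named at the morula stage took 1.49% and 1.54% in control and 1.57% and 1.63% under TMZ. The nuclear shares did not overlap between the groups, lower under TMZ at the 8-cell stage and higher under TMZ at the morula stage, but an exact permutation test of 2 against 2 libraries cannot go below p = 0.33. As shares of summed FPKM the 8-cell groups overlapped, at 2.41% and 2.35% in control and 2.36% and 1.87% under TMZ.

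**Figure D2:**
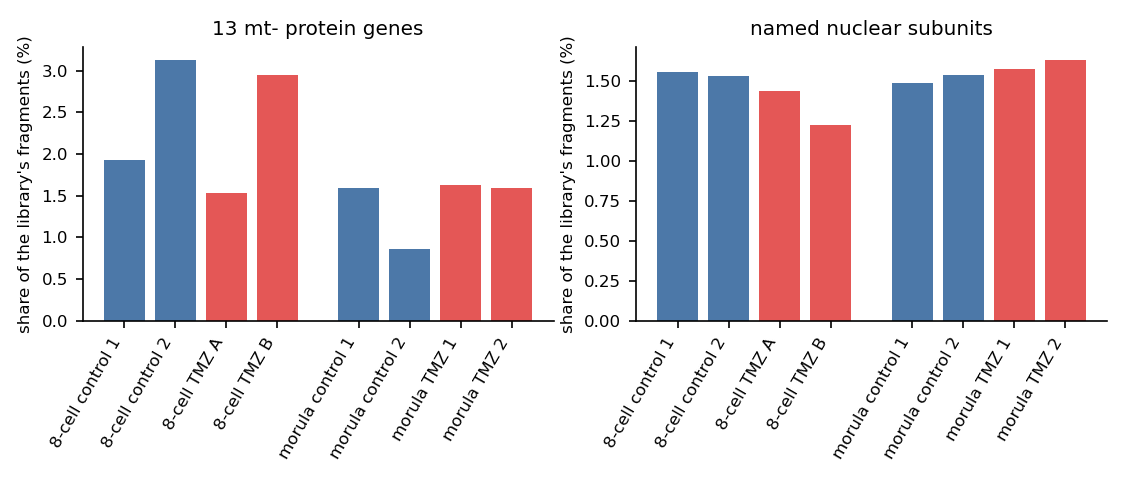
Share of each library's fragments (%) taken by the 13 mt- protein genes (left) and by the named nuclear subunits (right), 1 bar per library, blue for control and red for TMZ. The nuclear share lies between 1.23% and 1.63% in all 8 libraries, while the mitochondrial share runs from 0.858% to 3.13%.

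The first comparison asked whether the subunits changed with TMZ at the 8-cell stage. A gene was called if the unadjusted P of limma-trend on log2(FPKM + 1) was under 0.05 and the log2 fold change was beyond 0.5. Of all 10021 tested entries 4.96% were called lower and 1.35% higher, and the median log2 fold change was -0.19. Of 73 tested nuclear subunits 3 fell and 0 rose, a share close to the background. Their median was -0.21, with 57 of the 73 below 0 (6923 of all 10021 entries), and its distance from the median of all was -0.024. This distance depended on the TMZ libraries, at -0.30 without library A and 0.15 without library B. Median-ratio scaling in place of library totals turned the sign of the nuclear median, to 0.066, as it did that of all entries, to 0.046, and raised the share of higher calls among all calls from 21.4% to 53.4%; the distance was then 0.02. Under that scaling 0 nuclear subunits were called lower and 1, of complex IV, higher. No member had an adjusted p under 0.05, nor did any of the 10021 entries (0%); 5 members had an unadjusted P under 0.05 by limma-trend and 3 by voom, which called 0 after adjustment.

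The 3 nuclear subunits that fell at the 8-cell stage were Ndufs7, Ndufa11 and Atp5f1e. Ndufs7 (chr10:80084941-80095049, GRCm39) is a core subunit of complex I that holds its last iron-sulfur cluster, next to ubiquinone. Its values were 111 and 105 FPKM in control and 50.2 and 59.3 FPKM under TMZ. Both TMZ libraries lay far below both controls, with a log2 fold change of -0.97 (SE 0.28, limma adjusted p = 0.771). Of its exonic bases 31.7% also belong to exons of Gamt, and without control library 1 it was no longer called, at -0.93.

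Ndufa11 (chr17:57024322-57031247) is a membrane subunit of complex I, and 10.3% of its exonic bases also belong to exons of Vmac. It stood at 124 and 99.6 FPKM in control and 78.6 and 55.7 FPKM under TMZ. The groups were apart, by less than for Ndufs7, with a log2 fold change of -0.74 (SE 0.30, limma adjusted p = 0.771). The call was lost without control library 1, without control library 2 and without TMZ library B. Atp5f1e (chr2:174302861-174305906), the epsilon subunit at the base of the F1 rotor, had 42.5 and 44.1 FPKM in control and 25.9 and 25.5 FPKM under TMZ. It had the tightest groups of the 3, with a log2 fold change of -0.73 (SE 0.29, limma adjusted p = 0.771), and was not called without either control library, at -0.76 and -0.70. Under median-ratio scaling none of the 3 passed, with log2 fold changes of -0.68, -0.45 and -0.44.

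Libraries decided the 8-cell counts. Without control library 1 or 2, 0 and 1 nuclear subunits were called lower. Without TMZ library A 12 were, and without TMZ library B 9, with 3 called higher. In the comparisons that leave out 1 library the remaining library of that group was taken to vary like the other group. Library A exceeded library B in 53 of the 73 nuclear subunits, against 3650 of the 10021 tested entries, while all 13 mt- genes were lower in A than in B. The controls differed by a median of 0.19 per nuclear subunit and the TMZ libraries by 0.40 on the log2 scale.

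By complex the 8-cell medians went from -0.38 to -0.062, against -0.19 over all tested entries. Complex I had a median of -0.24 over 35 genes, with 28 below 0 and the 2 calls given above. In 18 of the 35 both TMZ libraries lay below both controls. Among all 10021 tested entries 6923 were below 0, 4.96% were called lower and 29.6% had both TMZ libraries below both controls. Complex III was lowest, at -0.38 over 7 genes, all below 0 and none called. Uqcrc2, a core protein and the lowest of the complex, had 73.9 and 76.0 FPKM in control and 48.0 and 54.7 FPKM under TMZ, without overlap, at -0.54 (SE 0.28, limma adjusted p = 0.786). Of its exonic bases 21.5% also belong to other genes. Uqcrh, the hinge protein, lay at 209 and 223 FPKM against 221 and 209 FPKM, and so overlapped. Complex IV had a median of -0.062 over 14 genes, with 10 below 0, and none was called. Its lowest gene, Cox6a1, had 541 and 755 FPKM in control and 347 and 561 FPKM under TMZ, with overlap (-0.53, SE 0.31). The highest difference was that of Cox8c (0.90, SE 0.41). The groups were apart in 2 of its genes with TMZ lower and in 2 with TMZ higher, against 29.6% and 8.09% of all entries. Under median-ratio scaling the medians were 0.052 (I), -0.09 (III), 0.23 (IV) and -0.057 (ATP synthase), against 0.046 over all entries. Then 16 of the 35 complex I genes and 5 of the 7 complex III genes were below 0.

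The parts of the ATP synthase are given side by side, without a test of the difference between them. The F1 head, its 5 catalytic and rotor subunits, had a median of -0.61, and the 3 genes of the membrane c-ring -0.67. The 4 peripheral stalk genes, which hold the head still, had a median of 0.066 and the 4 small membrane subunits -0.11. Members went against these medians: the stalk gene Atp5po had 66.5 and 60.5 FPKM in control and 44.6 and 37.7 FPKM under TMZ, without overlap (-0.62, SE 0.29), and the head gene Atp5f1c, the gamma subunit, had 287 and 304 FPKM in control and 331 and 219.9 FPKM under TMZ, with overlap (-0.13, SE 0.28). Of their exonic bases 27.1% (Atp5po) and 17.6% (Atp5f1c) also belong to other genes. All 8 head and ring genes were below 0 and 6 of them did not overlap between the groups. Among all tested entries 29.6% did not overlap with TMZ lower, and 31 of the 73 nuclear subunits did so. With TMZ higher the groups were apart in 8.09% of all entries and in 2 nuclear subunits, Cox7a1 and Cox8c. Under median-ratio scaling the medians of the head and the ring stayed below 0, at -0.32 and -0.38, and those of the stalk and the small membrane subunits were 0.36 and 0.17.

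Among the 13 mt- genes 2 fell at the 8-cell stage, mt-Nd6 and mt-Atp8, and all 13 were below 0, with a median of -0.60. Of all 10021 tested entries 4.96% were called lower and 6923 were below 0. The 5 genes outside the copy had a median of -0.19, as had all entries, with 1 called lower. The median of the 6 genes inside it, whose values are not given as levels, was -1.31. Under median-ratio scaling 10 of 13 were below 0. mt-Nd6 (chrM:13552-14070), a complex I subunit and the only protein gene of the light strand, stands outside the chromosome 1 copy. It had 403 and 503 FPKM in control and 156 and 267 FPKM under TMZ. Its groups were apart, with a log2 fold change of -1.14 (SE 0.31, limma adjusted p = 0.759); 2.7% of its bases overlap mt-Nd5 on the other strand, and it was not called without control library 2. mt-Atp8, inside the copy, was listed at 27.8 and 45.7 FPKM in control and 7.86 and 25.7 FPKM under TMZ, at -1.25 (SE 0.51, limma adjusted p = 0.771), and its call was lost without control library 2 and without TMZ library A.

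The other genes outside the copy did not separate at the 8-cell stage. mt-Cytb, the central electron carrier of complex III and the highest of all members, had 7187 and 13254 FPKM in control and 7326 and 11365 FPKM under TMZ. mt-Nd1, which forms part of the ubiquinone channel of complex I, had 4603 and 6560.4 FPKM in control and 3062 and 7557 FPKM under TMZ. The TMZ values of mt-Nd1 lay on either side of the controls. mt-Nd2 and mt-Nd5, proton-pumping subunits, had log2 fold changes of -0.18 (SE 0.31) and -0.59 (SE 0.36).

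At the 8-cell stage library A had the lowest value of every mt- gene in or partly in the copy. Outside it the same held for mt-Nd1, mt-Nd2, mt-Nd5 and mt-Nd6, but not for mt-Cytb. mt-Co1, the catalytic subunit of complex IV, had 1557 and 2422 FPKM in control and 799 and 2451 FPKM under TMZ. mt-Nd4, a pumping subunit, had 939 and 1299 FPKM in control and 496 and 1318 FPKM under TMZ. In both, library A was lowest and library B highest. Inside the copy, mt-Co2 was listed at 34.4 and 48.0 FPKM in control and 3.33 and 48.4 FPKM under TMZ, and mt-Atp6, mt-Co3, mt-Nd3 and mt-Nd4l likewise had their lowest value in library A. Without library B the median of the mt- genes was -1.52, and without library A it was 0.14. Over all tested entries these medians were -0.29 and -0.11.

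**Figure D3:**
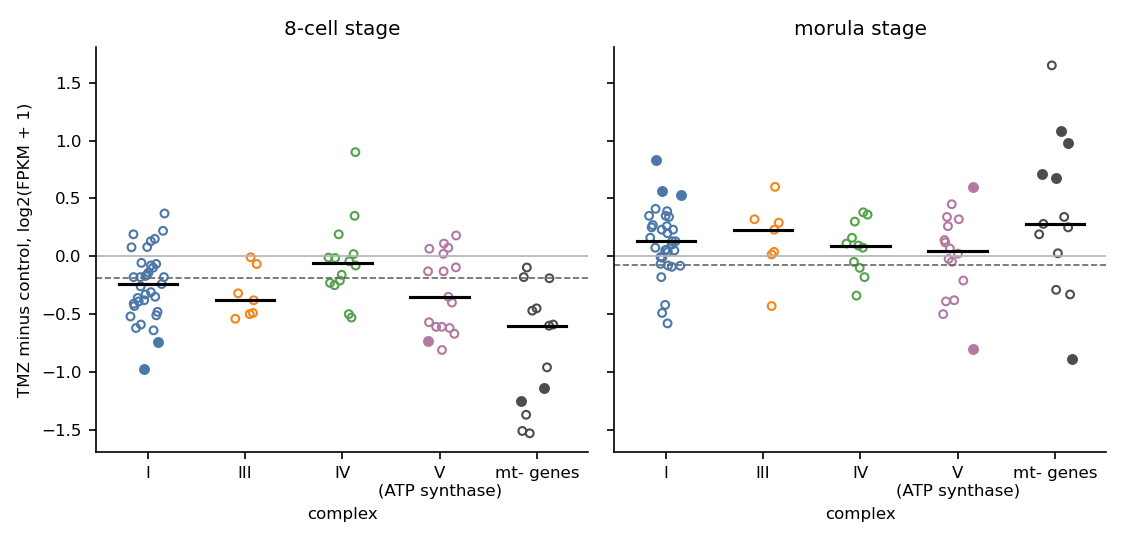
Difference between TMZ and control on the log2(FPKM + 1) scale for each tested member (1 point per gene), by complex for nuclear genes and pooled for the mt- genes, at the 8-cell stage (left) and the morula stage (right). Filled points passed the threshold, black lines are medians, and the dashed line is the median of all tested entries (-0.19 and -0.076); at the 8-cell stage complex IV lies closest to 0, and at the morula stage all 5 medians lie above the dashed line.

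The second comparison asked the same at the morula stage. Among all 9685 tested entries 7.16% were called higher and 10.7% lower, and the median was -0.076. Of 67 tested nuclear subunits 4 rose (Ndufa1, Atp5pf, Ndufc1 and Ndufv2) and 1 fell (Atp5mc2). The share called higher was close to the background and the share called lower was under it. The median of the nuclear subunits was 0.10, which is 0.18 above that of all entries, and 45 of 67 were above 0. Median-ratio scaling brought 8 of them past the threshold upward and moved their median to 0.23 and that of all entries to 0.027, with the share of higher calls among all calls at 59.8% against 39.99%; the distance between subunits and all entries was then 0.20. No member had an adjusted p under 0.05, against 0.031% of all entries; 14 members had an unadjusted P under 0.05 by limma-trend and 14 by voom, which called 0 members after adjustment.

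Many small differences in one direction make up this median. In 32 of the 67 nuclear subunits both TMZ libraries exceeded both controls, against 22.3% of all tested entries, and in 12 both lay below, against 33.3%. By complex the medians were 0.13 (I), 0.23 (III), 0.093 (IV) and 0.045 (ATP synthase). The controls differed by a median of 0.19 and the TMZ libraries by 0.15 on the log2 scale per subunit and the median absolute difference between the groups was 0.23, not far from that spread. Without control library 1, control library 2, TMZ library 1 or TMZ library 2 the median was 0.039, 0.16, 0.15 and 0.041.

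Ndufa1 (chrX:36451241-36454849), a small membrane subunit that complex I needs for its assembly, had the largest rise of the nuclear members. It had 203 and 178 FPKM in control (190.2 ± 17.7, SD, n = 2) and 297 and 387 FPKM under TMZ (342 ± 63.6). Each TMZ library was above both controls, with a log2 fold change of 0.83 (SE 0.18, limma adjusted p = 0.164), and the call held when any of the 4 libraries was left out. None of its 100-base stretches occurs elsewhere in GRCm39, but 19.3% of its 31-base stretches do. No other annotated gene shares its exons. Its length in the table did not equal that of the annotation, so the gene model counted may differ from the one searched. At the 8-cell stage it had 298 and 364 FPKM in control and 409 and 347 FPKM under TMZ, with overlap.

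Ndufc1 and Ndufv2, also of complex I, rose by less. Ndufc1 (chr3:51309273-51316412), an accessory membrane subunit, had 121 and 103 FPKM in control and 152 and 179 FPKM under TMZ, a log2 fold change of 0.56 (SE 0.17, limma adjusted p = 0.189). Ndufv2 (chr17:66385633-66408634), a core subunit of the NADH-oxidising arm with an iron-sulfur cluster, had 50.3 and 45.7 FPKM in control and 65.0 and 75.0 FPKM under TMZ, at 0.53 (SE 0.17, limma adjusted p = 0.195). The groups did not overlap for either gene. Both calls were lost without control library 2 and without TMZ library 2, where the log2 fold changes were 0.43 to 0.46.

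Of the partners of Ndufv2, Ndufv1, which binds NADH, lay in the other direction without passing the threshold. It had 22.8 and 30.7 FPKM in control and 21.7 and 13.9 FPKM under TMZ, at -0.58 (SE 0.26, limma adjusted p = 0.281), the lowest value of complex I. The 7 core subunits had a median of -0.066 and the 26 accessory subunits 0.15. Median-ratio scaling gave 0.06 and 0.27.

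In the ATP synthase, Atp5pf rose and Atp5mc2 fell. Atp5pf (chr16:84614160-84633154), the F6 subunit of the peripheral stalk, had 187 and 153 FPKM in control and 244 and 274 FPKM under TMZ, at 0.60 (SE 0.17, limma adjusted p = 0.175). Of its exonic bases 17.5% belong also to Gabpa or Jam2. Atp5mc2 (chr15:102571295-102580787), one of the genes for the same c-ring protein, had 23.9 and 31.1 FPKM in control and 19.0 and 12.1 FPKM under TMZ, at -0.80 (SE 0.26, limma adjusted p = 0.2). Both genes had separate groups, and both calls were lost without control library 2 and without TMZ library 2. For Atp5mc2 23.5% of the 100-base stretches occur elsewhere, which makes its counting uncertain.

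The c-ring protein is made from Atp5mc1, Atp5mc2 and Atp5mc3, whose products differ only in the import signal that is cut off. Atp5mc1 had 134 and 127 FPKM in the morula controls and 145 and 188 FPKM under TMZ. Atp5mc3 had 198 and 186 FPKM in control and 187 and 191 FPKM under TMZ, so the gene that fell was the least abundant of the 3. Among the head subunits, Atp5f1b, the catalytic beta subunit, had 341 and 325 FPKM in control and 275 and 234 FPKM under TMZ, at -0.39 (SE 0.15, limma adjusted p = 0.233). Atp5f1a, the alpha subunit, had 171 and 182 FPKM in control and 141 and 110.0 FPKM under TMZ, at -0.50 (SE 0.18, limma adjusted p = 0.213). Neither passed the fold required, though both had separate groups. The head had a median of -0.38 over 5 genes, and -0.26 under median-ratio scaling, and the 3 named stalk genes 0.32.

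**Figure D4:**
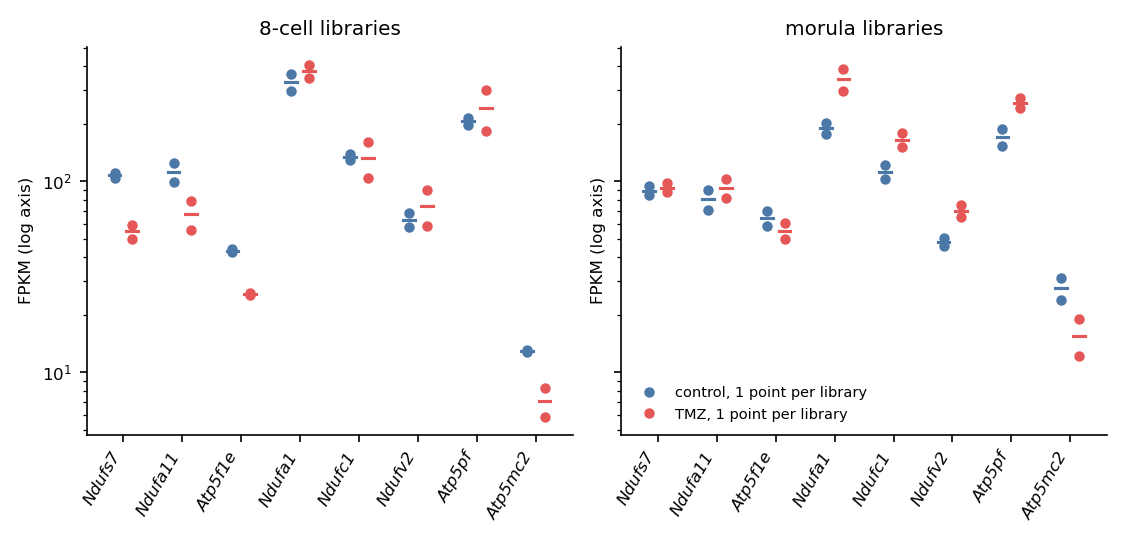
FPKM on a log axis of the 8 nuclear members that passed the threshold at either stage, at the 8-cell stage (left) and the morula stage (right), with 1 point per library (blue control, red TMZ) and a line for the mean of 2. Ndufs7, Ndufa11 and Atp5f1e separate on the left, and Ndufa1, Ndufc1, Ndufv2 and Atp5pf (TMZ above control) on the right; Atp5mc2 is lower under TMZ on both sides but passed only on the right.

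Complexes III and IV held no called nuclear gene at the morula stage. Uqcrb, a small subunit that binds ubiquinone, was farthest up in complex III, with 615 and 334 FPKM in control and 683 and 689 FPKM under TMZ, at 0.60 (SE 0.28, limma adjusted p = 0.283). The spread of its controls alone was wider than that gap. Cyc1, the cytochrome c1 that hands electrons on, was the lowest, with 99.4 and 100.2 FPKM in control and 89.0 and 61.4 FPKM under TMZ, at -0.43 (SE 0.21). Uqcr10, the most abundant subunit of the complex, had 504 and 579 FPKM in control and 621 and 698 FPKM under TMZ. In complex IV, Cox8a had 703 and 818 FPKM in control and 604 and 596 FPKM under TMZ, at -0.34 (SE 0.14, limma adjusted p = 0.259), and Ndufa4, named for complex I but part of complex IV, had 177 and 179.9 FPKM in control and 219 and 238 FPKM under TMZ, at 0.36 (SE 0.14, limma adjusted p = 0.245).

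Of the 13 mt- genes 4 rose in morulae and 1 fell, with a median of 0.28. Among all tested entries 7.16% were called higher and 10.7% lower. The 5 genes outside the copy had a median of 0.19, with 1 called higher and 0 lower. Of the 6 genes inside it, whose values are not given as levels, 2 were called higher and 1 lower. mt-Cytb, outside the copy, had 5092 and 2883 FPKM in control and 5854 and 6471 FPKM under TMZ, at 0.68 (SE 0.26, limma adjusted p = 0.227). mt-Co1, partly inside it, had 851 and 379.5 FPKM in control and 1095 and 1142 FPKM under TMZ, at 0.98 (SE 0.35, limma adjusted p = 0.213). In both genes control library 2, the library with the lowest mitochondrial share, was lowest by far. Without it neither was called, at 0.27 and 0.39, and neither was without TMZ library 1 or 2.

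The other genes outside or partly in the copy did not separate in morulae. mt-Nd1 had 4964 and 2677 FPKM in control and 4679 and 3998 FPKM under TMZ, and mt-Nd2 had 1425 and 775 FPKM in control and 1205 and 1197 FPKM under TMZ. For mt-Nd4 the values were 862 and 416 FPKM in control and 789 and 673 FPKM under TMZ. In all 3 genes the TMZ libraries lay between the controls. mt-Nd5 stood at 614 and 345 FPKM in control and 390.4 and 342 FPKM under TMZ, and mt-Nd6 at 255 and 154 FPKM in control and 175 and 150.4 FPKM under TMZ, so the fall of mt-Nd6 at the 8-cell stage was not called here (-0.29, SE 0.25).

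Inside the copy the morula values went in different directions. mt-Co2 was listed at 35.9 and 40.3 FPKM in control and 20.4 and 19.7 FPKM under TMZ, at -0.89 (SE 0.17, limma adjusted p = 0.161). mt-Atp8 was listed at 8.76 and 9.06 FPKM in control and 17.0 and 23.4 FPKM under TMZ, at 1.08 (SE 0.22, limma adjusted p = 0.161). These neighbouring genes moved in opposite directions and kept their calls when any library was left out. mt-Co3 was listed at 4.40 and 2.93 FPKM in control and 6.54 and 6.52 FPKM under TMZ, at 0.71 (SE 0.24, limma adjusted p = 0.207), and was not called without control library 2, TMZ library 1 or TMZ library 2. mt-Atp6, which overlaps mt-Atp8 by 21.1% of the shorter gene, was listed at 127 and 17.0 FPKM in control and 424 and 52.2 FPKM under TMZ, too scattered for a call. How many mt- genes were called depended on which library was left out.

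A further comparison tested whether the effect of TMZ differed between the stages, as the difference of the 2 log2 fold changes over 8583 genes named in both tables. Of 80 members 5 passed the threshold, all with the higher value in morulae, against 7.84% of all genes in either direction, and none had an adjusted p under 0.05 by limma, the lowest being 0.402. The nuclear members were Ndufs7 (1.02, SE 0.28), Ndufa11 (0.94, SE 0.36), Ndufb7 (0.78, SE 0.32) and Atp5po (0.76, SE 0.30), and the mitochondrial member was mt-Atp8 (2.34, SE 0.66). Ndufs7, which fell at the 8-cell stage, had 84.7 and 94.4 FPKM in the morula controls and 88.0 and 97.8 FPKM under TMZ, with overlap. The count was 2 under median-ratio scaling, and it depended on which library was left out.

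The order of the nuclear subunits was nevertheless alike at both stages. Over the 66 tested in both tables, the 8-cell and morula log2 fold changes had a Spearman rho of 0.57 and a Pearson r of 0.57, against 0.19 and 0.12 over the 7877 named entries tested in both. Those entries were not matched to the subunits for level or spread. The 8-cell controls differed by a median of 0.31 on the log2 scale over all tested entries and by 0.19 over the nuclear subunits. The part of level and spread in the correlations was not tested. The 2 stages have separate controls, but the genes of a stage share the same 4 libraries, so the points are not independent and no p is given. Of the 66 genes 22 were below 0 at both stages, 12 above 0 at both, and 32 below 0 in 8-cell embryos and above 0 in morulae. The other way went 0. Over the 7877 entries the same numbers were 3484, 1297 and 2100, with 996 the other way. Median-ratio scaling changed the direction of 25 of the 73 nuclear subunits tested at the 8-cell stage and of 10 of the 67 in morulae. The head genes Atp5f1a, Atp5f1b and Atp5f1d, the c-ring gene Atp5mc2, Ndufv1 and Cyc1 lay at the lower end in both, and, named like these after their values were seen, Ndufa1, Atp5pf, Ndufv2, Ndufb8 and Cox7a1 at the upper end in both. Among the 13 mt- genes rho was 0.13.

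**Figure D5:**
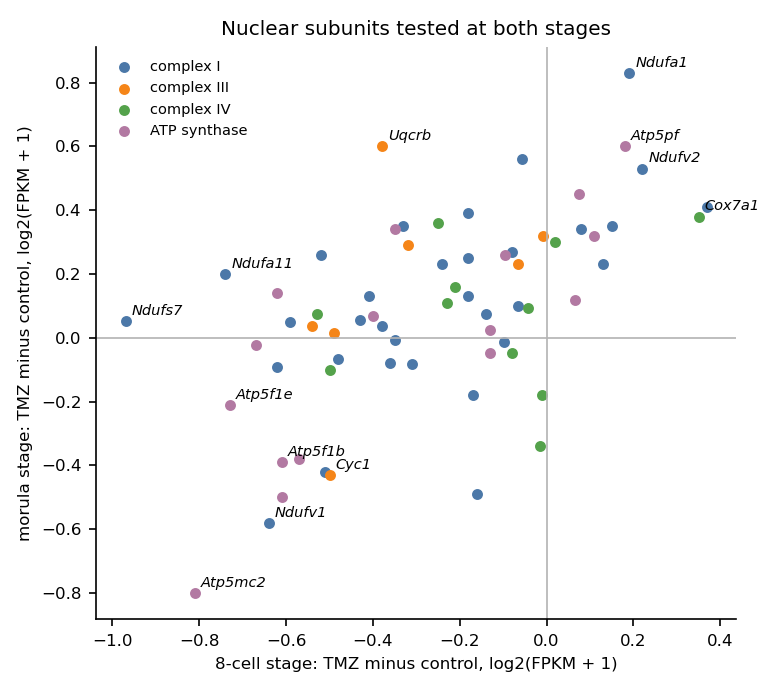
TMZ minus control on the log2(FPKM + 1) scale at the 8-cell stage (horizontal) and the morula stage (vertical) for the 66 nuclear subunits tested at both, coloured by complex. Points run from lower left (Atp5mc2 at -0.81 and -0.80) to upper right (Ndufa1 at 0.19 and 0.83), and none lies at the lower right. Of the 7877 named entries tested at both stages, 996 were above 0 in 8-cell embryos and below 0 in morulae.

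Promoters of the members with the largest morula difference in each complex are shown to give the sequence context of genes that moved in opposite directions: Ndufa1 and Atp5mc2 passed the threshold, and Uqcrb and Cox7a1 were the largest in complexes without a call. The promoters are the 250 bases before the RefSeq start site in GRCm38.p6. No promoter was found for Uqcrb, so it was neither printed nor searched. The bases are printed 5′ to 3′ on the strand of the gene, with motifs in capitals.
Ndufa1, chrX:37191239-37191488, minus strand: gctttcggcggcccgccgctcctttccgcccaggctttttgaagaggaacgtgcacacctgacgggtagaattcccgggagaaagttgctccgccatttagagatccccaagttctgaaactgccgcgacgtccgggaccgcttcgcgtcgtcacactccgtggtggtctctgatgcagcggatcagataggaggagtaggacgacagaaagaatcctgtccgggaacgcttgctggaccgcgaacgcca
Atp5mc2, chr15:102671048-102671297, minus strand: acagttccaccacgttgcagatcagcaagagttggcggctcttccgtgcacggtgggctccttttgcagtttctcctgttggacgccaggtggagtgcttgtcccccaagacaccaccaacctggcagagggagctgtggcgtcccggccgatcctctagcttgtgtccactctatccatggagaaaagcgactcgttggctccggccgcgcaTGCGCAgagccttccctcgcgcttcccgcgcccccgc
Cox7a1, chr7:30183921-30184170, plus strand: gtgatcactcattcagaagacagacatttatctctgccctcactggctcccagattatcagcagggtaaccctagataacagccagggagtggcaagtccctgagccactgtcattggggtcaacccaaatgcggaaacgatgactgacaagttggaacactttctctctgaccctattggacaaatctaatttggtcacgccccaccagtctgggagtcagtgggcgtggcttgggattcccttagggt

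Short motifs known from promoters of respiratory genes were searched on both strands of these windows and the 50 bases that follow: TGCGCA of NRF1, CCGGAAG of the ETS factor GABPA and AAGATGG of YY1. Atp5mc2 held TGCGCA from base -37 to -32 before the start site, and Ndufa1 and Cox7a1 held none of the 3. Promoters were found for 65 of 83 nuclear symbols. Of these 65 genes 24.6% had TGCGCA, 21.5% CCGGAAG and 16.9% AAGATGG, against 8.79%, 9.93% and 7.28% of the 27025 genes with a promoter in the table. Matches of letters are a description and not binding sites.

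Subunits known mainly from other tissues were measured at low or moderate levels. Cox7a1, the heart and muscle form of Cox7a, had 30.5 and 29.7 FPKM in the 8-cell controls and 33.4 and 44.8 FPKM under TMZ, and 30.7 and 31.8 FPKM in the morula controls and 37.9 and 44.3 FPKM under TMZ. The TMZ libraries lay above the controls at both stages, by 0.35 (SE 0.31) and 0.38 (SE 0.17), and neither difference passed. Cox7b2, a testis form, lay between 13.4 and 40.9 FPKM in the 8 libraries with overlapping groups. Cox8c, also of testis, had 1.18 and 0.538 FPKM in the 8-cell controls and 3.25 and 1.75 FPKM under TMZ, at 0.90 (SE 0.41, limma adjusted p = 0.771), and fell below the minimum mean of 1 FPKM at the morula stage. Cox6a2, the muscle form of Cox6a, was listed at 0 in 4 libraries and at no more than 0.288 FPKM in the others. Atp5if1, the inhibitor that stops the ATP synthase from running backwards, had 32.2 and 42.3 FPKM in the morula controls and 43.8 and 58.9 FPKM under TMZ, at 0.45 (SE 0.22), and overlapped at the 8-cell stage. Of its exonic bases 48.1% also belong to exons of Gm12999. Ndufb11b lay between 8.05 and 39.6 FPKM. No entry was named for Atp5mk, Uqcrq, Cox6b2, Cox7a2, Cox8b, Ndufa4l2, Ndufs6, Uqcr11 or a second Atp5po gene; Ndufa13 had none at the 8-cell stage, and Atp5pd, Cox7a2l, Cox7b, Ndufa10, Ndufb6 and Ndufs4 none at the morula stage.

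Complex II, wholly nuclear and outside the rule, had all 4 genes below 0 at the 8-cell stage and 1 of the 3 named ones in morulae. Among all tested entries 6923 of 10021 were below 0 at the 8-cell stage and 5546 of 9685 in morulae. Sdha, its catalytic flavoprotein, fell at the 8-cell stage, from 7.92 and 4.95 FPKM to 2.64 and 2.07 FPKM (-1.12, SE 0.40, limma adjusted p = 0.771), and had 13.7 and 12 FPKM in the morula controls and 12.2 and 7.61 FPKM under TMZ. Sdhb, Sdhc and Sdhd were at -0.54, -0.51 and -0.32 at the 8-cell stage, none called, and Sdhb and Sdhc at 0.14 and 0.056 in morulae. Cycs, cytochrome c, had 51.1 and 63.5 FPKM in the 8-cell controls and 95.6 and 58.4 FPKM under TMZ. Ndufab1, the acyl carrier protein of complex I, was at -0.025 and 0.43, and Cox4i2, the low-oxygen form of Cox4, at -0.45 and, called lower, -0.56. No entry was named for Cyct, the testis cytochrome c, nor in morulae for Sdhd and Cycs.

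The machinery that builds and serves the chain was examined by lists. At the 8-cell stage the lists for assembly (16, 5, 18 and 5 genes tested for complexes I, III, IV and the ATP synthase), mtDNA (19), biogenesis (7) and carriers (7) held a single call. Of all entries tested there 1.35% were called higher and 4.96% lower. Polg2, the accessory subunit of the mitochondrial DNA polymerase, rose from 3.79 and 4.37 FPKM to 12 and 20.1 FPKM (1.70, SE 0.39, limma adjusted p = 0.62). In morulae Polg2 fell, from 2.93 and 8.05 FPKM to 1.76 and 1.65 FPKM (-1.14, SE 0.39). Of the 16 complex I assembly factors tested in morulae 1 rose, Ndufaf1 (0.92), and 2 fell, Ndufaf3 (-0.77) and Timmdc1 (-0.59). For complex III 1 of 4 fell (Uqcc3, -0.60) and for complex IV 1 of 16 (Cox11, -0.58), while none of 5 ATP synthase factors passed. Of 20 mtDNA maintenance and transcription genes 4 fell (Polg2, Twnk, the mitochondrial helicase, Supv3l1 and Fastk) and 1 rose (Mterf3, 0.75). None of the 6 tested regulators of mitochondrial biogenesis passed, and of 7 carriers of nucleotides and phosphate Vdac1, the outer membrane channel, fell (-0.61). The medians of these 7 morula lists went from -0.31 to 0.19, against -0.076 over all entries. Among all entries tested in morulae 10.7% were called lower and 7.16% higher. The genes called in these morula lists had limma adjusted p-values of 0.167 or more.

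Markers of the embryo and of other cells were measured beside these results. Of 10 preimplantation embryo markers 6 of 8 tested fell in morulae (Cdh1, Cdx2, Krt8, Nanog, Pou5f1 and Tfap2c), against 10.7% of all tested entries. These 6 had limma adjusted p-values of 0.161 or more. The summed level of the embryo markers was 175 and 174 FPKM in control and 115 and 96.1 FPKM under TMZ. At the 8-cell stage none of 8 passed, and the sums were 125 and 86.8 FPKM in control and 71.7 and 93.2 FPKM under TMZ. Summed markers of cumulus cells were 19.5 and 13.9 FPKM against 8.41 and 8.37 FPKM at the 8-cell stage, nearly all from Amhr2, which fell there (-0.91), and 6.42 to 13.2 FPKM in morulae. The other named cumulus markers, Fshr, Has2 and Tnfaip6 at the 8-cell stage and Ptx3 and Tnfaip6 in morulae, were listed at 0 in every library except the second TMZ library of each stage (B at the 8-cell stage), where they reached at most 0.0942 FPKM. Oocyte markers summed to 10.8 to 35.0 FPKM and fibroblast and blood markers to 2.49 to 11.3 FPKM, nearly all from the haemoglobin gene Hba-a1. The part of these differences in the values of the subunits was not tested.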

How the data were processed

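Full-length mRNA of mouse embryos was amplified for 8 libraries and sequenced by the authors, who deposited 1 table of FPKM values per stage without gene names. The submitters' processing notes name fastp 0.23.4, STAR 2.7.9a and featureCounts 2.0.6; the annotation release, the strand setting and the handling of reads with several matches are not given in the sources used here. Each deposited FPKM value steps by the worth of 1 fragment, and from these steps fragment numbers, library totals (31672356 to 64814423) and gene lengths were recovered. Lengths were aligned, in the order of the entries, to the genes of GENCODE vM39 on GRCm39 in the order of their identifiers, and a name was kept at a posterior of at least 0.95. After removal of a set of genes from the reference, 11 of 313 (8-cell) and 11 of 287 (morula) protein-coding entries of those genes were given to another gene, and 15 of 21329 genes named in both tables were dropped because their lengths did not match. Names are thus inferred, not read from the files.

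Within each table entries averaging 1 FPKM or more were tested on log2(FPKM + 1) with limma 3.58.1 (R 4.3.3, trend), 2 control against 2 TMZ libraries, with p-values adjusted by Benjamini-Hochberg over all tested entries. Fold changes are on that scale, which understates the change of low genes. A gene was called where P before adjustment was below 0.05 and the difference exceeded 0.5 on the log2 scale. The genes named in the text were those called, and, with exceptions mostly at the 8-cell stage, per complex the highest level and the largest difference in each direction. Others are given for their role. Members and lists were chosen with earlier results of these data known. Alternatives varied the pseudocount, the filter on low values, the scaling, the test, the name threshold and the libraries. In morulae, replicate numbers were used as a block in 1 alternative. The 8-cell TMZ libraries could not be matched to replicate numbers. The study's text names both the zygote and the 2-cell stage as the start of treatment, and a larger number of replicates than the 2 libraries per group analysed here.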

Additional observations from a re-analysis of the deposited data

Results flagged for a closer look

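For 5 members the effect of TMZ differed between morulae and 8-cell embryos at an unadjusted P under 0.05. The differences of the log2 fold changes, morula minus 8-cell, were 1.02 for Ndufs7, 0.94 for Ndufa11, 0.78 for Ndufb7, 0.76 for Atp5po and 2.34 for mt-Atp8. None had an adjusted p under 0.05 by limma, and 7.84% of all 8583 genes passed the same threshold. Ndufb7 had 47.8 and 63.2 FPKM in the 8-cell controls and 40.5 and 35.8 FPKM under TMZ, and 37.2 and 44.3 FPKM in the morula controls and 47.4 and 50.1 FPKM under TMZ. Atp5po, a stalk subunit that confers sensitivity to oligomycin, had 66.5 and 60.5 FPKM in the 8-cell controls and 44.6 and 37.7 FPKM under TMZ, and overlapped in morulae. The cause was not tested.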

How the results depend on the processing

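At the 8-cell stage the 3 nuclear subunits called lower became 5 with no filter (530 of all 30037 entries) and 0 under median-ratio scaling (255 of 10021). They were 12 with all 8 libraries in 1 fit, where 922 of 8583 genes were called lower. They were 0 among exact lengths and 0 at an adjusted p under 0.05. Among genes with little sequence elsewhere or shared exons (a subset chosen after seeing the data) 1 was called lower. The 0 called higher became 1 under median-ratio scaling, without the trend and in the fit of all 8. The nuclear median was 0.066 under median-ratio scaling and -0.41 to -0.14 with a library left out, and its distance from all entries -0.30 to 0.15. The 2 mt- genes called lower became 1 with no filter, under median-ratio scaling, without the trend, by voom and among the 5 genes outside the copy, 0 after adjustment and 0 to 11 with a library left out; their median was then -1.52 to 0.14, and its distance from all entries -1.23 to 0.25, or -0.004 outside the copy.

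In morulae the 1 nuclear subunit called lower became 3 with a pseudocount of 0.1 and by voom, and 0 after adjustment and in the subset. The 4 called higher became 8 under median-ratio scaling, where 1022 of all 9685 entries were called higher, and 0 among exact lengths and after adjustment. The nuclear median was 0.23 under median-ratio scaling, 0.062 among exact lengths and 0.039 to 0.16 with a library left out, and its distance from all entries 0.14 with a pseudocount of 5 and among exact lengths, 0.13 with no filter and 0.093 to 0.25 with a library left out. Of mt- genes 1 was called lower, and 0 in the fit of all 8, after adjustment and outside the copy. The 4 called higher became 2 with no filter, 1 in the fit of all 8 and outside the copy, and 0 after adjustment. The median of the mt- genes, 0.28, was -0.20 without control library 2.

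As shares of summed FPKM in place of fragments the mt- genes took 4.98% (control) and 4.42% (TMZ) at the 8-cell stage and 2.48% and 3.17% in morulae, and the nuclear subunits 2.38% and 2.11%, and 2.37% and 2.5%. The 5 members that differed between stages became 2 under median-ratio scaling and 3 to 22 with a library left out. With the replicate number as a block, the morula counts were 2 nuclear subunits lower and 5 higher and 1 mt- gene lower and 5 higher, with 4 members at an adjusted p under 0.05, but same-numbered libraries did not deviate together (r = 0.076 over 9685 entries), so the samples share only a number. No paired analysis was possible at the 8-cell stage because both of its TMZ columns carry the same replicate number. Where a value changed, the cause was not tested, beyond the fewer genes or libraries of a subset. The 2 libraries per group limit the precision, and intervals from counting alone were not used.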
